A study of Mus musculus with 4 samples.

Results

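The E2F and DP transcription factor family was described in mouse haematopoietic stem cells (HSC), the self-renewing cells of adult bone marrow, after loss of the retinoblastoma family. The members were the 8 E2F genes E2f1 to E2f8 and the DP genes Tfdp1 and Tfdp2, 10 of the 18193 genes measured, and they were taken by name from the probe sets that the platform annotation gives to exactly 1 gene. They had 21 probe sets in all. Each gene took its value from its brightest probe set, by the mean of the 4 arrays, and the others are reported beside it.

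The Rb family deficient group was 2 pools labelled Rb -/- p130 -/- p107-/-, and the wild type group was 2 pools labelled Rb +/+ p130 +/+ p107-/-. The label of both groups thus gives p107 as deleted, so the comparison is of Rb and p130 loss in cells that, by label, already lacked p107. Each pool came from 3 adult mice that had been given tamoxifen to start recombination, and the cells were sorted as KLS CD48- CD150+ 2 weeks later. The labels name neither the driver of the recombinase nor the sex of the mice. All values are log2 RMA expression values from Affymetrix arrays, and every difference is deficient minus wild type on that log2 scale.

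E2F proteins bind DNA at the promoters of genes for DNA replication and cell cycle entry. E2f1, E2f2 and E2f3 are classed as activators, which Rb holds in check, and E2f4 and E2f5 as repressors that work with p107 and p130. E2f6 represses without pocket proteins, through Polycomb-type complexes. The atypical repressors E2f7 and E2f8 have a pair of DNA-binding domains and need no DP partner, while the other E2Fs bind DNA as dimers with Tfdp1 or Tfdp2. Several E2F genes are known E2F targets themselves, and adult HSC are known for being mostly quiescent.

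That known self-regulation is why promoter stretches of 5 members are shown, each read 5′ to 3′ on the gene's own strand from RefSeq sequence of GRCm38.p6. In them, motif matches are in capitals, and positions count from the annotated transcript start, with the base before it at -1. The 8-base E2F motif was searched as TTTCCCGC, TTTCGCGC, TTTGCCGC or TTTGGCGC, the 7-base form was the same without its first T, and the cell cycle homology region (CHR) motif was TTTGAA, all on both strands. Every 8-base match contains a 7-base match.
E2f2, chr4:136172294-136172323, + strand, positions 21 to 50: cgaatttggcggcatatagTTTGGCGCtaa
E2f3, chr13:29986065-29986183, - strand, positions -120 to -2: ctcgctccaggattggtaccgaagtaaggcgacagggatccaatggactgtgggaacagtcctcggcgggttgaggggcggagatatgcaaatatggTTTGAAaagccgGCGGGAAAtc
E2f7, chr10:110745199-110745368, + strand, positions -240 to -71: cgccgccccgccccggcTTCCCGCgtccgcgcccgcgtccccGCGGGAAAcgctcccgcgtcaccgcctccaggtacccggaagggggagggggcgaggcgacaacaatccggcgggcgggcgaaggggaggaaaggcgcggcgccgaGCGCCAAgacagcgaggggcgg
E2f8, chr7:48881687-48881716, - strand, positions -120 to -91: aggcgcggaTTGGCGCgcggggccccgggc
Tfdp1, chr8:13338631-13338724, + strand, positions -120 to -27: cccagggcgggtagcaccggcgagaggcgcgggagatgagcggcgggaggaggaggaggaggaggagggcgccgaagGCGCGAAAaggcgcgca

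RefSeq promoter windows of 300 bases, 250 before and 50 after a start, were matched for 8 of the 10 members. E2f4 and E2f5 were not matched. The 8-base motif lay in windows of E2f2, E2f3, E2f7 and Tfdp1, 4 of these 8 members, and in those of 2.6% of all 27025 genes with a window. The 7-base form lay in windows of 5 members, E2f8 being added, and in those of 10.9% of all these genes. Of the 48 listed E2F target genes with a window, 21 held the 8-base motif and 32 the 7-base form. CHR matches were in windows of E2f2, E2f3 and E2f8 and in those of 20.2% of all genes with a window, so they were not rare among other genes. In E2f3 the CHR match ended at -18, just before the 8-base motif at -11 to -4. The start counted for that window differed by 1 base from the annotated gene end, so positions on the - strand may be off by 1. Not every window lies at the outer end of its gene. The windows of E2f1 and E2f8 start from transcripts 466 and 477 bases inside the annotated gene, the E2f2 window with the CHR match 8508 bases inside, and both Tfdp2 windows 62459 and 63002 bases inside. The region before the outer end of E2f1, E2f8 and Tfdp2 was thus not searched, and the CHR match of E2f2 belongs to an inner start. A match describes these letters only and does not show binding.

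No member passed the limma test after adjustment over all genes, where 0% of the 18193 genes did. The members' adjusted p ran from 0.761 to 0.985. At an unadjusted p under 0.05, 2 of 10 members were higher, E2f2 and E2f8, and 0 were lower, against 2.19% of all genes higher and 4.04% lower. The unadjusted p of E2f8 was above 0.05 when either deficient pool was dropped (0.0854 for pool 1 and 0.154 for pool 2) or wild type pool 2 was dropped (0.124). It was also above 0.05 under the replicate block (0.0693) and when its probe sets were averaged (0.0950). E2f2 stayed under that level in all 12 alternatives, none of which used its second probe set alone. Other members passed it when 1 pool was left out, namely Tfdp2 (lower) without deficient pool 2, E2f7 (higher) without wild type pool 1, and E2f3 and E2f6 (both lower) without wild type pool 2. Both deficient pools lay above both wild type pools for 2 members, E2f2 and E2f8, and below both for 2, E2f3 and E2f4, while 17.0% of all genes lay apart in the higher direction and 18.5% in the lower. The differences were above 0 for 5 members and below 0 for 5. Their median was 0.08, against -0.00376 for all genes. With array medians aligned, the unadjusted counts over all genes were 601 higher and 530 lower, in place of 399 and 735, with E2f2 at 1.22 and E2f8 at 0.76.

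**Figure D1:**
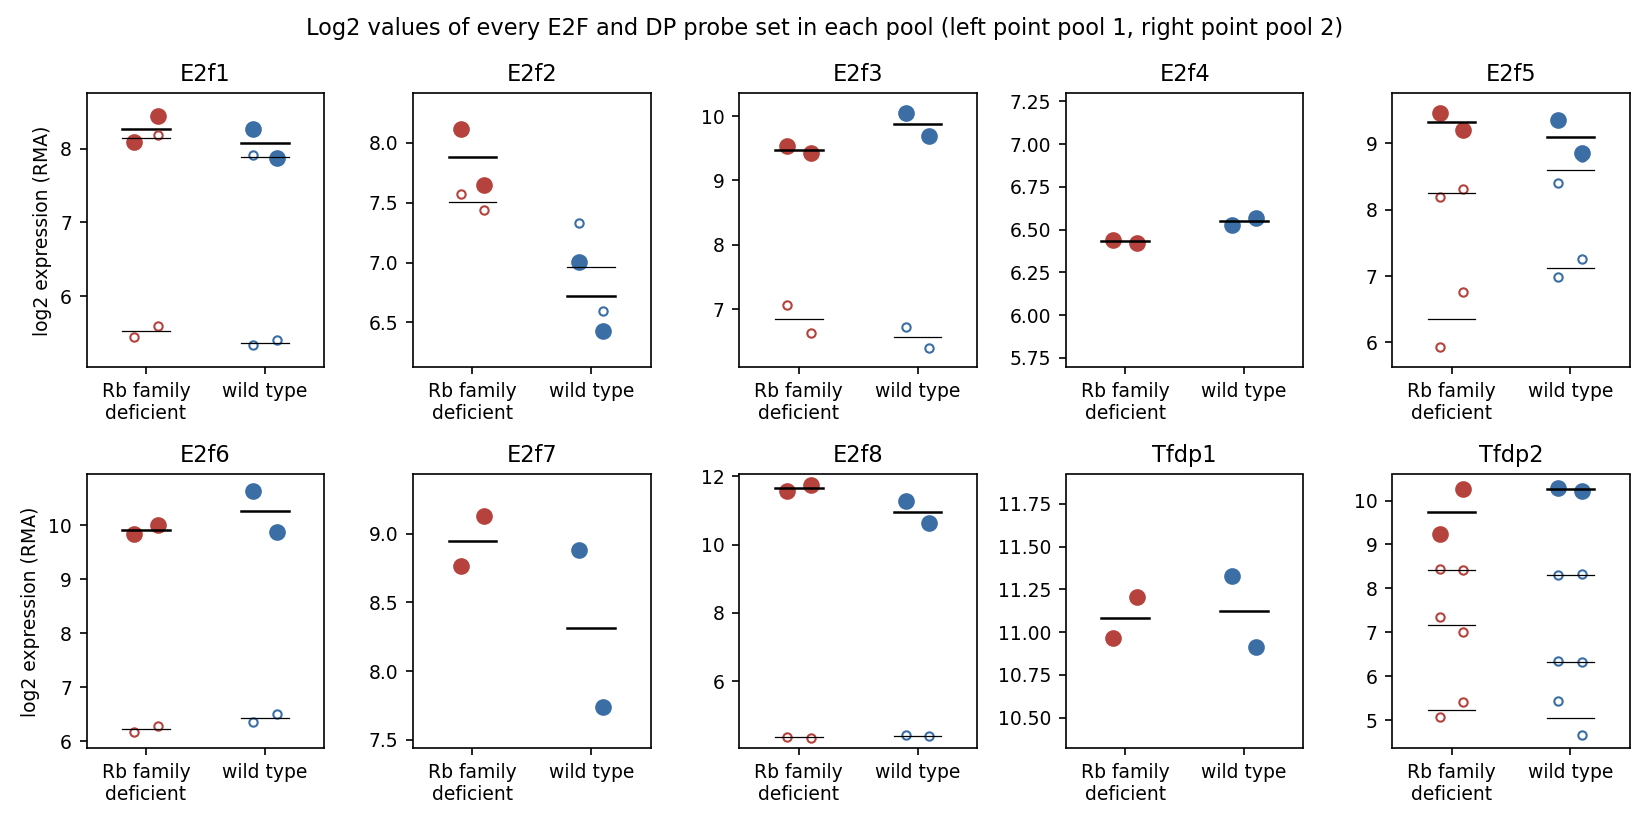
Log2 expression of each probe set (vertical axis, RMA log2 units, with its own range in each panel) in the Rb family deficient pools (red, left) and the wild type pools (blue, right), pool 1 being the left point and pool 2 the right point of a pair. Large filled points are the brightest probe set of the gene, small open points the others, and horizontal lines group means; E2f2 and E2f8 have both deficient pools above both wild type pools, and E2f3 and E2f4 below.

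Among the activators, E2f2 had the largest difference of the family. Its brightest probe set read 8.11 and 7.65 in deficient pools 1 and 2, against 7.01 and 6.43 in wild type pools 1 and 2, and every value below is given in that order of pools. The groups did not overlap, and replicates differed by 0.46 among deficient and 0.58 among wild type pools. E2f2 was 2.24-fold higher (log2 difference 1.17, SE 0.27, 95% interval 0.49 to 1.84, limma adjusted p = 0.761 with n = 2 pools per group), and only 0.440% of all genes had a larger difference in size. By unadjusted p (0.00649) it ranked 140 of the 18193 genes. The second E2f2 probe set had the same order of groups, with 7.57 and 7.44 in deficient and 7.33 and 6.60 in wild type HSC, and differed by 0.55 (SE 0.27).

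E2f1, the activator also known for its link to cell death, read 8.09 and 8.45 after Rb family loss, against 8.27 and 7.88 in wild type HSC. The groups overlapped, with wild type pool 1 between the deficient pools. The difference was 0.20 (SE 0.22, 95% interval -0.35 to 0.74, limma adjusted p = 0.901). Its second probe set was nearly as bright and tighter, with 8.11 and 8.18 in deficient and 7.92 and 7.87 in wild type HSC, which did not overlap and differed by 0.25 (SE 0.14). The third and dimmest probe set differed by 0.15 (SE 0.14), so all 3 probe sets of E2f1 lay above 0.

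E2f3, the activator that is also made as a shorter protein from an internal promoter, went the other way in its brightest probe set, with 9.53 and 9.42 for the deficient group and 10.05 and 9.69 for the wild type group. Both deficient pools were below both wild type pools. The difference was -0.40, or 1.32-fold lower (SE 0.18, 95% interval -0.86 to 0.06, limma adjusted p = 0.803). A second, dimmer probe set of E2f3 read 7.07 and 6.62 in deficient HSC, against 6.72 and 6.40 in wild type HSC, where the groups overlapped, and differed by 0.29 (SE 0.22). No source used here says which E2f3 transcripts each probe set reads.

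The repressors that pair with pocket proteins gave small differences or differences that depended on the probe set. E2f4 had 1 probe set, with 6.44 and 6.42 in deficient HSC and 6.53 and 6.57 in wild type HSC. The groups were apart, yet the difference was only -0.12 (SE 0.14, 95% interval -0.47 to 0.24, limma adjusted p = 0.910). Its pools lay within 0.04 of each other in either group.

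In its brightest probe set, which has no accession in the annotation, E2f5 measured 9.45 and 9.21 in deficient HSC, against 9.35 and 8.86 in wild type HSC. These groups overlapped and differed by 0.23 (SE 0.22, limma adjusted p = 0.887). The other E2f5 probe sets, both with an accession, had both deficient pools below both wild type pools. The second read 8.20 and 8.32 in the deficient group, against 8.41 and 8.80 in wild type, and differed by -0.35 (SE 0.18). The third read 5.93 and 6.77 in the deficient group, against 6.98 and 7.26 in wild type, and differed by -0.77 (SE 0.31). The direction of E2f5 therefore depended on which probe set stood for it.

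E2f6, the repressor that needs no pocket protein, measured 9.841 and 9.996 in deficient HSC, against 10.64 and 9.88 in wild type HSC. The groups overlapped, with wild type pool 2 between the deficient pools and wild type pool 1 highest of all, and E2f6 differed by -0.34 (SE 0.28, limma adjusted p = 0.868). Its dimmer probe set was apart, with 6.18 and 6.28 in the deficient group and 6.36 and 6.50 in wild type, and differed by -0.20 (SE 0.15).

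Of the atypical repressors, E2f8 measured 11.57 and 11.75 after Rb family loss, against 11.29 and 10.62 in wild type HSC. The groups did not overlap, although wild type pool 1 was nearer to the deficient pools than to wild type pool 2. E2f8 was 1.63-fold higher (log2 difference 0.71, SE 0.25, 95% interval 0.06 to 1.35, limma adjusted p = 0.782, unadjusted p = 0.0366). A second E2f8 probe set had values between 4.34 and 4.42 in all 4 pools and differed by -0.05 (SE 0.14).

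E2f7, which acts together with E2f8 and has 1 probe set here, read 8.77 and 9.13 for deficient HSC and 8.88 and 7.74 for wild type HSC. The groups overlapped because wild type pool 1 lay between the deficient pools, and the gap within the wild type group was 1.14. The difference of 0.64 (SE 0.39, 95% interval -0.36 to 1.64, limma adjusted p = 0.842) was smaller than that gap.

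The DP partners were both below 0 in their brightest probe sets, Tfdp1 by little. Tfdp1, the DP1 gene, measured 10.96 and 11.20 in deficient HSC, against 11.33 and 10.92 in wild type HSC. The wild type pools enclosed the deficient pools, and the difference was -0.04 (SE 0.20, 95% interval -0.55 to 0.47, limma adjusted p = 0.985), or 0.017 with array medians aligned.

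Tfdp2 encodes the second DP partner, and its 4 probe sets disagreed. The brightest read 9.23 and 10.25 for deficient HSC and 10.29 and 10.22 for wild type HSC. Deficient pool 1 alone was low, and the difference of -0.51 (SE 0.34, limma adjusted p = 0.848) became -0.00145 without that pool. The third Tfdp2 probe set was high in both deficient pools, with 7.34 and 7.01, against 6.34 and 6.32 in wild type. It was 1.80-fold higher (log2 difference 0.85, SE 0.17, 95% interval 0.41 to 1.28, unadjusted p = 0.00400, limma adjusted p = 0.701 over 45037 probe sets) and the only one of the 11 other probe sets of the family at an unadjusted p under 0.05. The remaining Tfdp2 probe sets differed by 0.12 (SE 0.13) and 0.19 (SE 0.30). No source used here says which Tfdp2 transcripts these probe sets read.

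Over the family, 7 members had more than 1 probe set. All probe sets of a gene had the same sign for 3 of them, E2f1, E2f2 and E2f6, and both signs occurred for E2f3, E2f5, E2f8 and Tfdp2.

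**Figure D2:**
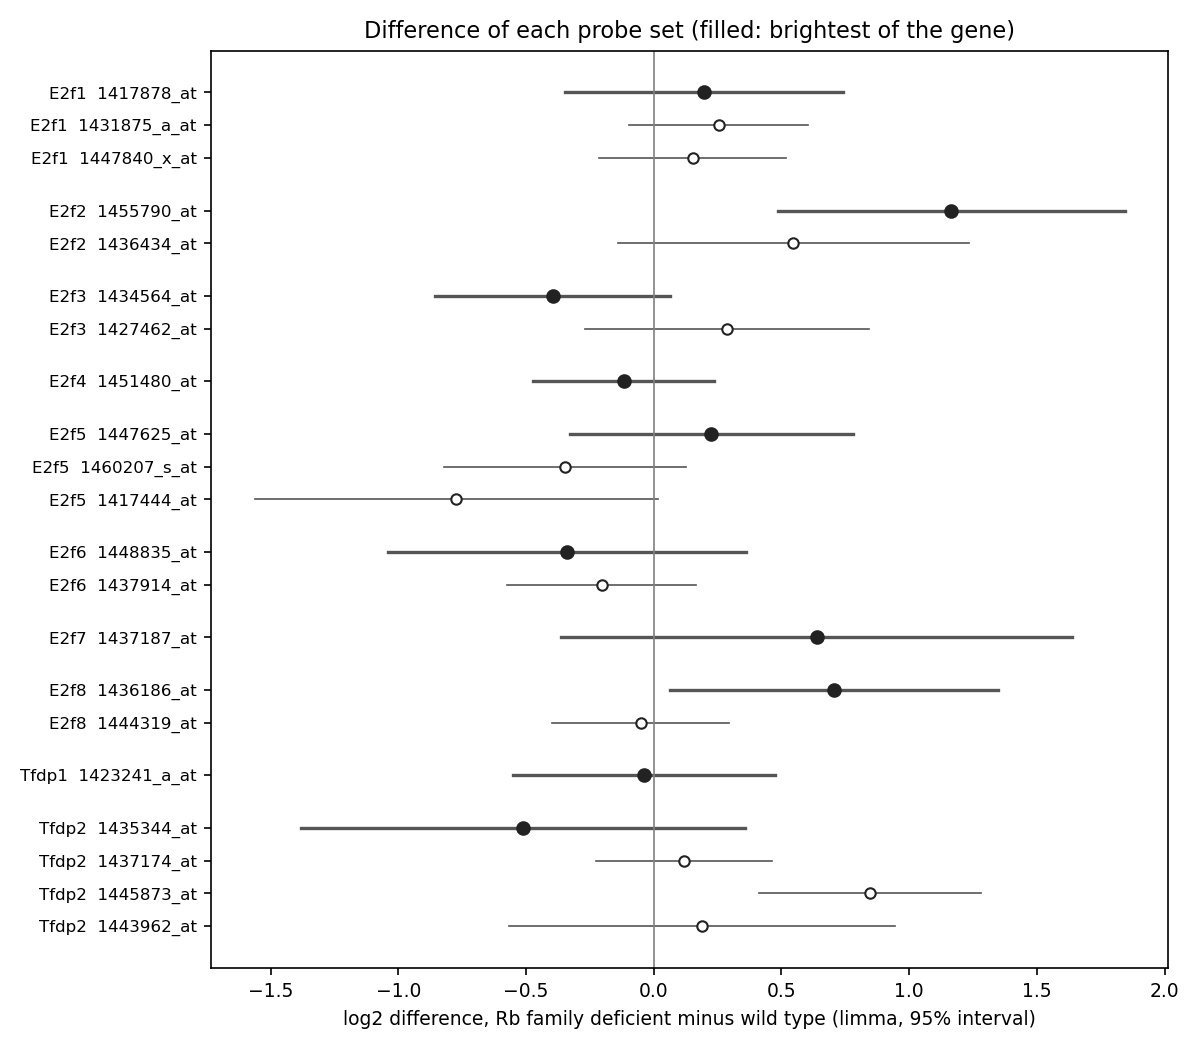
Log2 difference, Rb family deficient minus wild type (horizontal axis), of all 21 probe sets of the family with 95% limma intervals, filled points being the brightest probe set of each gene. The intervals of the brightest probe sets of E2f2 (0.49 to 1.84) and E2f8 (0.06 to 1.35) and of the third Tfdp2 probe set (0.41 to 1.28) lie above 0, before any adjustment.

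Activators and repressors were set against each other as classes, as a description with no test. The activator differences ran from -0.40 to 1.17 with a median of 0.20, and the repressor differences from -0.34 to 0.71 with a median of 0.23. The activator median minus the repressor median was -0.03, so the class medians lay close together. Either class held members on both sides of 0, 2 of 3 activators and 3 of 5 repressors being above it. With class means in place of medians, activators minus repressors gave 0.10. A split within the repressors was wider on that scale. E2f7 and E2f8 had a mean difference of 0.67 and E2f4 to E2f6 a mean of -0.08. Without wild type pool 2, E2f7 differed by 0.07 and E2f8 by 0.37, against -0.10, -0.021 and -0.72 for E2f4, E2f5 and E2f6.

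The contrast between the classes also depended on the E2f5 probe set and on single pools. With an E2f5 probe set that has an accession, the repressor median was -0.12 and the contrast 0.31, and with the mean of each gene's probe sets they were -0.12 and 0.32. Without deficient pool 1 the contrast was 0.27, and without deficient pool 2 it was -0.33. After subtracting each gene's mean over the 4 pools, the activators averaged 0.20 and 0.13 for deficient HSC and 0.06 and -0.38 for wild type HSC. On the same scale E2f7 and E2f8 averaged 0.20 and 0.47 for deficient HSC and 0.12 and -0.79 for wild type HSC. In both averages wild type pool 2 stood well below the other 3 pools. The activator average joins members that differed in wild type pool 1. There E2f2 (7.01) was below both deficient pools (8.11 and 7.65), while E2f3 (10.05) was at its highest.

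**Figure D3:**
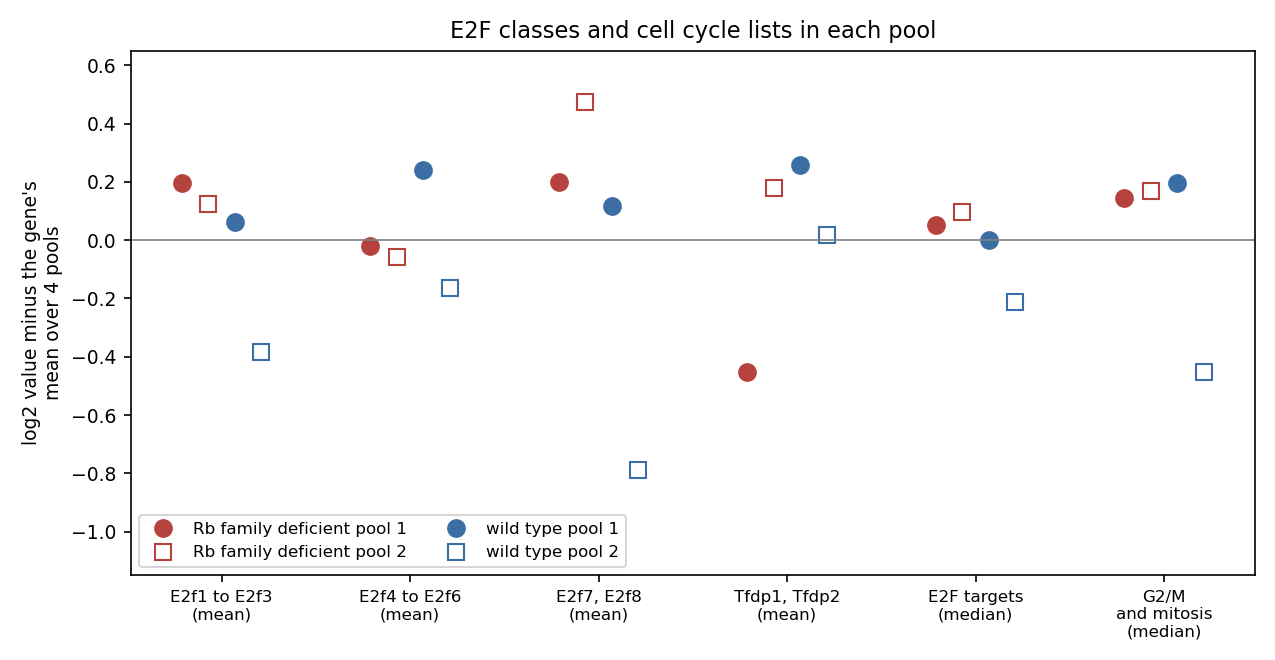
Log2 values minus each gene's mean over the 4 pools (vertical axis), averaged over the members of each E2F class and given as medians for the E2F target and G2/M lists, in the Rb family deficient pools (red) and wild type pools (blue), with filled circles for pool 1 and open squares for pool 2. Wild type pool 2 is the lowest point for the activators (-0.38), for E2f7 and E2f8 (-0.79), for the E2F targets (-0.21) and for the G2/M genes (-0.45).

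Wild type pool 2 was the lowest of the 4 pools for 6 of the 10 members, where it was the lowest for 19.2% of all genes. Without it E2f1 differed by -0.000786, E2f5 by -0.021, E2f7 by 0.07, E2f8 by 0.37, E2f2 by 0.87, E2f3 by -0.58 and E2f6 by -0.72. Of these, E2f2, E2f3 and E2f6 differed by more than 0.5 in size on the log2 scale, E2f2 being higher and E2f3 and E2f6 lower. Without wild type pool 1 in its place, E2f2 differed by 1.46, E2f7 by 1.21, E2f8 by 1.04, E2f1 by 0.39, E2f5 by 0.47, E2f3 by -0.21 and E2f6 by 0.042. The differences of E2f2, E2f3, E2f4, E2f7, E2f8 and Tfdp2, 6 of the members, kept their sign whichever pool was left out.

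**Figure D4:**
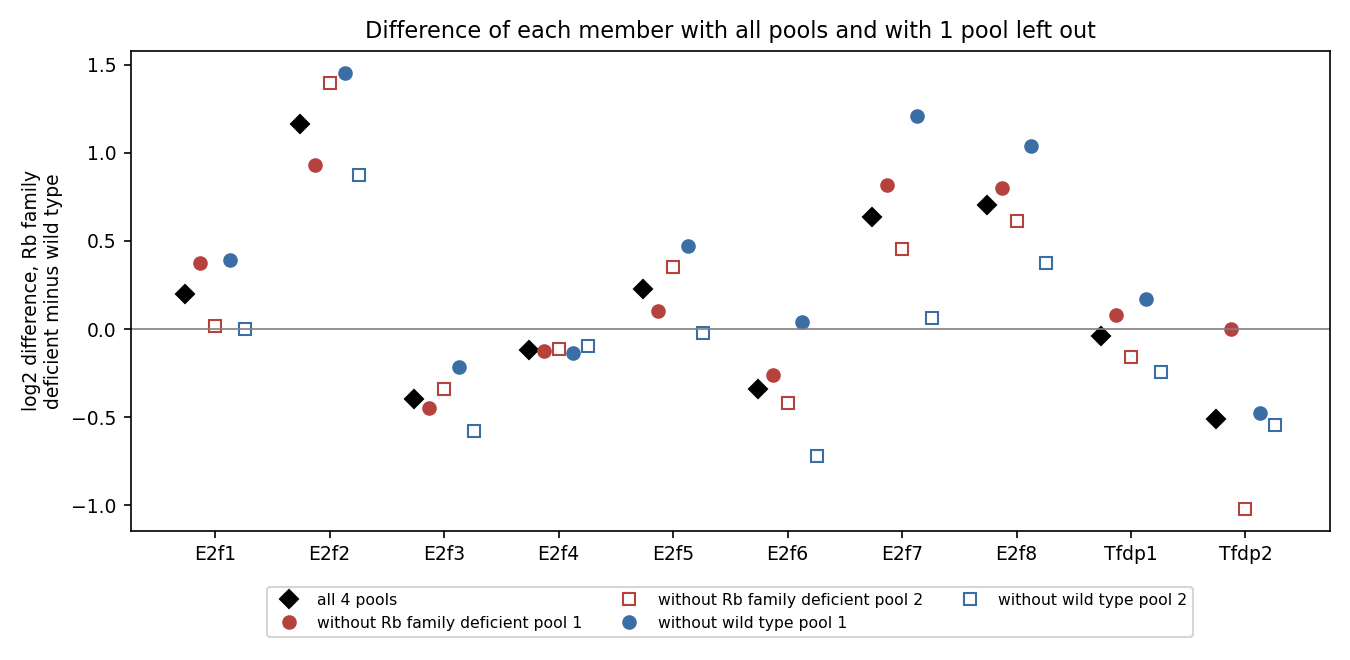
Log2 difference, Rb family deficient minus wild type (vertical axis), of each member's brightest probe set with all 4 pools (black diamonds) and with each pool left out in turn. E2f2 stays between 0.87 and 1.46, while E2f7 runs from 0.07 without wild type pool 2 to 1.21 without wild type pool 1.

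The genes that E2F factors are known to control were counted from a list of 60, of which 56 had a value. Of these 44, or 78.6%, were above 0, against 49.2% of all genes, and 0 passed the limma test in either direction. Their median difference was 0.18, against -0.00376 for all genes. At an unadjusted p under 0.05, 6 were higher and 0 lower, where 2.19% of all genes were higher and 4.04% lower. Both deficient pools lay above both wild type pools for 22 of the 56, or 39.3%, and below for 0, against 17.0% and 18.5% of all genes. The members with the smallest p were cyclin A2 (Ccna2, 0.69, SE 0.14), the origin recognition subunit gene Orc1 (0.67, SE 0.15), the recombination repair gene Brca2 (0.56, SE 0.15) and the licensing factor gene Cdt1 (0.46, SE 0.14), each at a limma adjusted p of 0.761. Wild type pool 2 was the lowest pool for 34 of the 56, and without it 34 were above 0 with a median of 0.09, while without wild type pool 1 the median was 0.30.

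Genes of G2/M and mitosis, which follow replication in the cell cycle, were counted beside them. Of 39 with a value among the 40 listed, 36, or 92.3%, were above 0 with a median of 0.27, where 49.2% of all genes were above 0. Of the 39, 0 passed, and 4 were higher and 0 lower when p was left unadjusted at the same 0.05 (2.19% and 4.04% of all genes). The groups lay apart in the higher direction for 11, or 28.2%, and in the lower for 0, against 17.0% and 18.5% of all genes. The phosphatase gene Cdc25c (1.01, SE 0.19), the chromosomal passenger gene Cdca8 (0.55, SE 0.14), the ubiquitin conjugating enzyme gene Ube2c (0.50, SE 0.18) and the kinetochore gene Spc25 (0.65, SE 0.26) had the smallest p. Wild type pool 2 was the lowest pool for 35 of the 39, and without it only 15 were above 0 and the median was -0.06, while without wild type pool 1 it was 0.62. The low values of E2f7 and E2f8 in wild type pool 2 thus came with low values of mitotic genes in the same pool, and whether the share of cycling cells in that pool played a part was not tested. In bulk samples fewer cycling cells and less RNA per cell cannot be told apart.

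Partners and regulators of E2F, from pocket proteins and MuvB subunits to cyclins, ubiquitin ligases and co-repressors, were the third list. It was chosen with earlier results of these data known, and a place in it, as for Tceal1, does not show a role with E2F. Of 36 with a value among 38, 13, or 36.1%, were above 0 with a median of -0.11, where 49.2% of all genes were above 0. Of the 36, 0 passed, and without adjustment 1 was higher and 4 were lower at p under 0.05 (2.19% and 4.04% of all genes). The groups lay apart in the higher direction for 6 and in the lower for 10, or 16.7% and 27.8%, against 17.0% and 18.5% of all genes, so the higher share was near that of all genes. The smallest p belonged to Tceal1 (-1.07, SE 0.19), cyclin D1 (Ccnd1, -1.70, SE 0.33), whose kinase complex releases E2F from Rb, and the pocket protein genes Rbl2 (p130, -0.83, SE 0.19) and Rbl1 (p107, -0.96, SE 0.30). Rb1 differed by 0.29 (SE 0.16). No source used here places these probe sets relative to the deleted exons, so they do not check the labels. Dropping deficient pool 1 or 2 gave a median of -0.03 or -0.24, and dropping wild type pool 1 or 2 gave -0.06 or -0.17.

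Genes whose values over the 4 pools were closest to those of an activator, after each gene's mean was subtracted, were ranked by Euclidean distance as a description. Nearest to E2f2 were Tgfbi (0.23), Pde5a (0.25) and Robo3 (0.25), the only 3 genes within a distance of 0.3, unnamed clones and predicted genes being passed over. E2f1 was nearest to Dhrs3 (0.02), Arhgap32 (0.03) and Grb2 (0.06), and E2f3 to Atp6v1a (0.02), Sytl4 (0.03) and Ubqln1 (0.03). Within 0.3 there were 1036 genes for E2f1 and 1200 for E2f3, so their profiles were common among genes of small spread.

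Other cell types and sample quality were checked with 9 marker lists. Over all genes, 49.2% of differences were above 0. HSC markers were below 0 for 9 of 14 with a value, with Procr (-0.85, SE 0.17) and Mecom (-0.69, SE 0.16) at the smallest p. The 14 include Cd48 (-0.03), which the gate selects against. At an unadjusted limma p under 0.05, 1 of the 14 was higher and 2 were lower (2.19% and 4.04% of all genes). The median of the list was -0.11, or -0.000731 with 7 above 0 when deficient pool 1 was left out. It was -0.29 without deficient pool 2, and -0.28 and -0.08 without wild type pools 1 and 2. The gate marker Kit was between 9.94 and 10.45 in the deficient pools and between 10.47 and 11.09 in the wild type pools. Slamf1 was between 9.26 and 9.90 in the deficient pools and between 8.81 and 9.86 in the wild type pools. Mature neutrophil markers were above 0 for 9 of 10 with a value, with a median of 0.90 that was 0.37 without wild type pool 1 and 1.59 without wild type pool 2, and their summed unlogged level came to 67364 and 42554 for deficient HSC and 19758 and 42952 for wild type HSC. Mmp8 (2.24, SE 0.60) and Mmp9 (1.56, SE 0.52) had the smallest p of that list. Granulocyte and monocyte progenitor markers were above 0 for 6 of 6, with sums of 7349 and 20169 for deficient HSC and 4142 and 16769 for wild type HSC, so they were high in pool 2 of both groups. Without wild type pool 1, 0 of these 6 were above 0 and their median was -0.62 in place of 0.65. The sums of neutrophil markers were not lowest in wild type pool 2, where E2f2, E2f7 and E2f8 were lowest, and the part of these cells in the E2F values was not tested. Markers of the remaining 6 lists were above 0 for 6 of 9 (erythroid cells), 3 of 7 (megakaryocytes), 7 of 7 (B cells), 4 of 6 (T and NK cells), 6 of 8 (macrophages) and 7 of 8 (endothelial and stromal cells), with 0 past the adjusted threshold in any list. Without wild type pool 1 the counts of these lists, in the same order, were 1, 4, 3, 2, 5 and 6, and the medians of erythroid and B cell markers were -0.59 and -0.023 in place of 0.17 and 0.29. Without deficient pool 1 the counts were 3, 6, 5, 2, 6 and 5. In the endothelial and stromal list Pdgfrb (1.03, SE 0.22) and Emcn (-0.41, SE 0.26) had the smallest p. Both deficient pools lay above both wild type pools for Pdgfrb, and the groups overlapped for Emcn. The Y-linked genes Eif2s3y, Kdm5d and Uty also lay lower in both deficient pools than in both wild type pools, with differences of -1.04, -1.33 and -0.99.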

How the data were processed

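Gene expression was measured in 4 pools of sorted HSC, 2 per group, on Affymetrix arrays. The authors' deposited values are log2 expression, 1 per probe set and array, made with RMA per the submitters' processing notes, which also name limma. No source used here gives versions, settings or a genome build. The values themselves (2.65 to 14.9) showed the log2 scale. RMA gives all arrays nearly the same distribution, so a change in total RNA would not show, and it compresses differences of dim probe sets. No detection calls were used, so nothing is said of background, and precision is limited by the number of arrays.

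Of 45101 probe sets, 34945 had exactly 1 gene symbol in the platform annotation of 2016, 932 had several and 64 were controls. Symbols were updated by Entrez ID with RefSeq genes of GRCm38.p6 (34741 matched). The brightest probe set stood for each of 18193 genes, with no filter. Differences were fitted over all genes with limma 3.58.1 (lmFit, eBayes) in R 4.3.3 without a block, with Benjamini-Hochberg adjustment and a threshold of 0.05. Other probe sets were fitted over 45037 probe sets. Nothing states whether pools shared mice, so p-values measure the spread between these pools. The fit was tested on simulated data, with spreads drawn around the mean variance of the real genes. There it called 15% of changes of log2 size 1 and 98% of those of size 2 at the adjusted threshold. An absence of calls therefore does not show an absence of change. Promoters came from RefSeq windows.

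The members and lists were chosen with earlier results of these data known. Genes named are the members, Rb1, Rbl1, Rbl2, the 4 genes of smallest p in each of 3 gene lists, the 2 of smallest p in marker lists with values given, and the 3 nearest profiles of each activator. Kit, Slamf1, Cd48 and the Y-linked genes were named as sample checks, Cd48 and the Y-linked genes after their values were seen. Alternatives were a replicate block, leaving out each pool, other choices of probe set, median centring, a filter on dim genes, a variance trend and all probe sets in 1 fit.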

Additional observations from a re-analysis of the deposited data

How the results depend on the processing

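No gene passed the adjusted threshold under any of the 12 alternatives, and the members' adjusted p ran from 0.467 to 1.00 over them. The replicate block, the filter, the variance trend and the fit of all probe sets cannot change a member's difference, by construction. Only median centring and the other choices of probe set could change a sign. Counting all of these, with leaving out pools aside, 75 of 79 member differences kept their sign. The exceptions were E2f5 at -0.30 and Tfdp2 at 0.16 under the averaging of all probe sets per gene, Tfdp1 at 0.017 with median centring, and E2f5 at -0.35 when probe sets with an accession came first, an alternative chosen after seeing the data. The repressor median was -0.12 under both the averaging and the accession choice, and the activator minus repressor contrast 0.32 and 0.31. With 1 pool left out, E2f1 ran from -0.000786 to 0.39, E2f2 from 0.87 to 1.46, E2f3 from -0.58 to -0.21, E2f4 from -0.14 to -0.10, E2f5 from -0.021 to 0.47, E2f6 from -0.72 to 0.042, E2f7 from 0.07 to 1.21, E2f8 from 0.37 to 1.04, Tfdp1 from -0.24 to 0.17 and Tfdp2 from -1.02 to -0.00145. The activator median ran from -0.000786 to 0.39, the repressor median from -0.021 to 0.47 and the contrast from -0.33 to 0.27. The cause was not tested, beyond the smaller number of pools. The filter on dim genes left E2f4 without a value, and with 1 repressor fewer the repressor median was 0.43 in place of 0.23 and the contrast -0.23 in place of -0.03.

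The pools share only a number between groups, and their deviations from the group means correlated at -0.19 across genes. With the replicate block no difference changes by construction, E2f2 stayed at 1.17 (SE 0.16, limma adjusted p = 0.962), E2f8 at 0.71 (SE 0.27, limma adjusted p = 0.962), and no adjusted call changed. The unadjusted p of E2f8 was 0.0693 with the block, against 0.0366 without it, so 1 member in place of 2 was higher at that level. At an unadjusted p under 0.05, where 399 genes were higher and 735 lower, the lower count was 457 with the replicate block. Both counts were 244 and 317 without deficient pool 1, 176 and 408 with the filter, which tests fewer genes, and 1530 and 1513 over all probe sets. Median centring gave 601 higher, and leaving out wild type pool 2 gave 689 higher.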
